A study of Mus musculus with 25 samples.

Results

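Myokines are proteins that skeletal muscle releases and that act on the muscle itself or on other organs. The 10 myokine genes described here were *Il6*, *Il15*, *Fgf21*, *Gdf15*, *Metrnl*, *Fndc5*, *Ostn*, *Bdnf*, *Dcn* and *Sparc*. They were taken by their symbols from the 52636 genes of the count table, and each symbol matched 1 row. Of the 10, 8 passed the filter on low counts used with the 4 groups of genotype and exercise, and 9 passed the filter used with 8 groups of sex, genotype and exercise. *Il6* passed only the second filter and *Fgf21* neither.

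RNA was sequenced from the *soleus*, a postural muscle rich in slow oxidative fibers, of 25 C57BL/6 mice that were 12 weeks old, with 1 library per mouse. All mice were homozygous for a *Dnmt3a* allele with loxP sites around exon 19. WT mice carried no Cre, while mD3AKO mice also carried the *mCK-Cre* transgene, in which the muscle creatine kinase promoter drives the recombinase in muscle fibers. The rested groups held 5 WT and 7 mD3AKO mice that had been placed on a sham treadmill, and the exercised groups held 7 WT and 6 mD3AKO mice killed 60 minutes after a 30-minute treadmill run. Both sexes were in every group, with 13 males and 12 females in all.

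Whole muscle was lysed, so the libraries also hold RNA of fibroblasts, vessels, nerve, blood and satellite cells, which a muscle fiber promoter does not target. In such bulk tissue, fewer cells of a type and less RNA per cell cannot be told apart. *Dnmt3a* lay at 116 ± 13.2 CPM (counts scaled to a common library size; SD, n = 12) in WT mice and at 40.9 ± 5.86 CPM (n = 13) in mD3AKO mice, and the ranges of 93.4 to 131 CPM and 34.6 to 53.9 CPM did not overlap. The libraries held 22671457 to 37431801 counts. Mouse 15, a rested mD3AKO male, stood apart with the lowest total. The ribosomal RNA genes *mt-Rnr2* and *mt-Rnr1* and the gene *CT010467.1* took 39.5% of its counts together, against 7.75% to 13.0% in the other 24 mice.

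The 10 proteins work in different ways. Interleukin-6, the product of *Il6*, is the classic factor that contracting muscle releases, and it signals through *Il6ra* and *Il6st*. Interleukin-15 sustains lymphocytes and is presented on *Il15ra*. FGF21 and GDF15 are hormones of cellular stress whose genes are activated by ATF4, the transcription factor of the integrated stress response. Meteorin-like (*Metrnl*) and irisin, which is cleaved from FNDC5, were described as products of muscle under control of PGC-1α, the coactivator of mitochondrial biogenesis. Musclin (*Ostn*) binds the natriuretic peptide clearance receptor *Npr3*, and *Bdnf* encodes a neurotrophin that binds *Ntrk2*. Decorin (*Dcn*) and SPARC are proteins of the extracellular matrix that fibroblasts make in quantity.

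Promoter sequences were taken from RefSeq on GRCm38.p6, the build also called mm10. The table held 14 windows of 300 bases for 7 of the 10 genes, each from 250 bases before a transcription start to 50 after it. Entries were not found for *Il15*, *Ostn* and *Dcn*. The 250 bases before the start are printed for 3 genes, 5′ to 3′ on the strand of the gene. *Fgf21* and *Il6* are shown because they were the members at or near 0 reads, and *Fndc5* because it was the member that differed between the sexes. Capitals mark a match to TGATGNAA, the core of the element that ATF4 binds, in *Fgf21* (chr7:45615491-45615740, minus strand). In *Il6* (chr5:30012864-30013113, plus strand) they mark a match to TGANTCA, a loose form of the AP-1 element that allows any middle base. In *Fndc5* (chr4:129136749-129136998, plus strand) they mark every CG.
Fgf21: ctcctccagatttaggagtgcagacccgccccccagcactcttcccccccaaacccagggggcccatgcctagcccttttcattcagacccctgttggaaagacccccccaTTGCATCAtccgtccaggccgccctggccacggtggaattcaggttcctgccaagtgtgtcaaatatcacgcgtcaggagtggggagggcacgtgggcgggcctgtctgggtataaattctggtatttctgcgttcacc
Il6: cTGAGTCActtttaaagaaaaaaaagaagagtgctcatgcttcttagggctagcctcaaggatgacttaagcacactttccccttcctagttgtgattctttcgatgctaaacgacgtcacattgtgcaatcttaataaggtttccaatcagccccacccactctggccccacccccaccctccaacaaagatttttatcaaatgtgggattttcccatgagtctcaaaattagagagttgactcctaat
Fndc5: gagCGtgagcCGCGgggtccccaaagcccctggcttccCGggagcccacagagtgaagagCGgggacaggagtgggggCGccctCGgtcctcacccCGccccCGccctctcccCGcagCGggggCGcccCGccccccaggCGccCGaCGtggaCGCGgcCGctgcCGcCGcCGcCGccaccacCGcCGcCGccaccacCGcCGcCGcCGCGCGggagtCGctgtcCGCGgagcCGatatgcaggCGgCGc

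The match in *Fgf21* was TTGCATCA on the strand shown, the reverse complement of the motif, and began 139 bases before the start. TGATGNAA occurred on either strand in 3.97% of all 32851 windows, and among the members also in 1 window of *Bdnf*. The match in *Il6* began 249 bases before the start. TGANTCA occurred in 7.81% of all windows, and among the members also in 1 window of *Bdnf*, there as TGAATCA. TGACGTCA, the cyclic AMP response element, occurred in 1.79% of all windows and in 0 of the 14 member windows. The 3 motifs share the letters TGA, and the matches of the members did not overlap each other. A match only says that these letters are there. The *Fndc5* window held 48 CG over its 300 bases, and 1.22% of all windows held as many, against a median of 7. The *Metrnl* window held 24, which 20.0% of windows reached, and each of the other member windows held 13 or fewer.

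The levels of the members were compared per kb of gene length (RPKM), since longer genes collect more reads. *Sparc* was the highest with 112 ± 36.4 RPKM (SD, n = 25), followed by *Fndc5* with 92.3 ± 12.9 and *Dcn* with 72.1 ± 13.1 RPKM. *Ostn* lay at 27.4 ± 9.02, *Metrnl* at 8.62 ± 1.66 and *Il15* at 1.95 ± 0.634 RPKM. Below 1 RPKM were *Bdnf* at 0.671 ± 0.256, *Gdf15* at 0.169 ± 0.0794, *Il6* at 0.0365 ± 0.0419 and *Fgf21* at 0.0174 ± 0.0301 RPKM.

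The order from *Dcn* down to *Il6* held in each of the 25 mice. *Sparc* exceeded *Fndc5* in 14 mice and *Fndc5* exceeded *Dcn* in 20. *Il6* exceeded *Fgf21* in 17 mice, lay below it in 5 and was tied with it at 0 reads in 3. The ranges of these neighbours overlapped, and their differences were not tested. Relative to its mean, *Fndc5* varied least between mice with a coefficient of variation of 13.9%. *Fgf21* varied most with 173%.

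**Figure D1:**
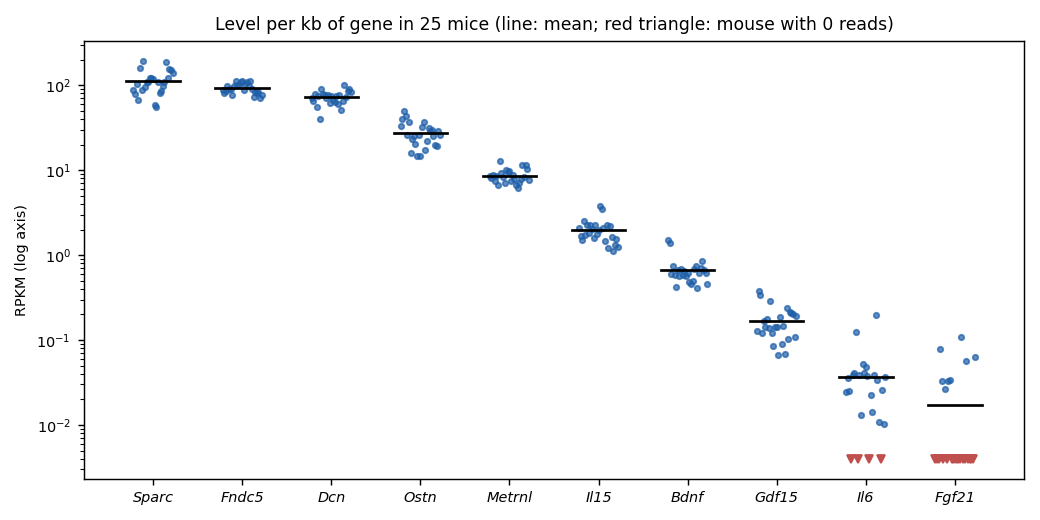
Level of each myokine gene in RPKM on a log axis, 1 point per mouse, with the mean of 25 mice as a line and mice with 0 reads as triangles at the bottom. The means run from 112 RPKM for *Sparc* to 0.0174 RPKM for *Fgf21*, and mice with 0 reads occur for *Il6* and *Fgf21*.

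The first comparison asked which myokine genes differed 60 minutes after exercise. 0 of the 8 members tested were called at an adjusted p under 0.05 by edgeR, while 10.4% of all 16340 genes tested were called. At an unadjusted p under 0.05 there were 2 members, *Il15* and *Metrnl*, both lower after exercise. DESeq2 called 1, *Metrnl*, and a fit with blocks of mouse numbers as a term called 1, *Il15*. With WT and mD3AKO mice taken apart, 0 of 8 were called in either genotype, against 3.59% of all genes in WT and 6.02% in mD3AKO mice. 1 member, *Metrnl* in mD3AKO mice, had an unadjusted p under 0.05 there.

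*Il15* (chr8:82331632-82403222, minus strand) had 4.49, 4.77, 4.97, 5.16 and 8.58 CPM in the rested WT mice. The exercised WT mice ranged from 2.50 to 5.64 CPM with a median of 4.62. In mD3AKO mice the range was 3.52 to 7.83 CPM with a median of 3.97 at rest, and 2.75 to 5.09 CPM with a median of 3.36 after exercise. The groups overlapped, and 9 of the 13 exercised mice lay below the median of the rested mice. The log2 fold change was −0.39 (95% interval −0.70 to −0.08), with an unadjusted p of 0.0156 and an adjusted p of 0.106 by edgeR's quasi-likelihood test. The highest value of rested mD3AKO mice was that of mouse 15, without which the log2 fold change was −0.31 with an adjusted p of 0.166. Without the exercised mD3AKO mouse 6, the highest of its group, it was −0.46 with an adjusted p of 0.0470. Without the rested WT mouse 14, the highest of its group, it was −0.29 with an adjusted p of 0.252. With blocks of mouse numbers as a term it was −0.41 and passed the threshold with an adjusted p of 0.0459.

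*Metrnl* (chr11:121701544-121716306, plus strand) had 11.7, 12.4, 13.6, 15.4 and 16.0 CPM in the rested WT mice, and 9.78 to 13.4 CPM with a median of 12.5 in the exercised WT mice. In mD3AKO mice it ranged from 12.7 to 20.2 CPM with a median of 15.2 at rest and from 10.5 to 18.3 CPM with a median of 11.1 after exercise. 12 of the 13 exercised mice lay below the median of the rested mice, and the ranges overlapped in both genotypes. The log2 fold change was −0.26 (95% interval −0.44 to −0.07), which missed the threshold with an adjusted p of 0.0708 by edgeR and passed it with 0.0455 by DESeq2. It also passed without the exercised mD3AKO mouse 23, at −0.32 with an adjusted p of 0.00503, and without the rested mD3AKO mouse 2, at −0.28 with an adjusted p of 0.0385. Without the rested WT mouse 11 it was −0.23 with an adjusted p of 0.143.

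*Gdf15* (chr8:70629393-70632456, minus strand) rested on 4 to 24 reads per library. It had 0.124, 0.157, 0.191, 0.239 and 0.266 CPM in rested WT mice and 0.125 to 0.538 CPM with a median of 0.312 in exercised WT mice. Rested mD3AKO mice ranged from 0.201 to 0.704 CPM with a median of 0.332, and exercised ones from 0.223 to 0.634 CPM with a median of 0.324. The log2 fold change after exercise was 0.33 (95% interval −0.17 to 0.83, adjusted p = 0.495 by edgeR), an interval that holds a rise and a small fall alike at this depth.

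*Fgf21* (chr7:45613886-45615490, minus strand), whose main source is known to be the liver, had 13 reads in the 25 libraries together. 17 libraries held 0, and the highest held 3. A library with 0 reads allows up to 3 reads, which is 0.0755 to 0.210 CPM at these depths. The exercised mice held 10 of the reads and the rested mice 3, with means of 0.0256 and 0.00668 CPM, and a 2-sided permutation test of the difference gave p = 0.101. Without the rested WT mouse 20, which held 2 of the 3 rested reads, p was 0.0238. Of the 25 permutation tests that left out a mouse, this was the only 1 with p under 0.05.

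*Il6* (chr5:30013114-30019981, plus strand) had 73 reads in all, 37 in the exercised and 36 in the rested mice. 4 libraries held 0 reads. Rested WT mice had 2 to 4 reads, exercised WT mice 0 to 3, rested mD3AKO mice 0 to 12 and exercised mD3AKO mice 1 to 14. The means were 0.0916 CPM after exercise and 0.0852 CPM at rest, and the permutation test gave p = 0.885. Most of the spread lay in 2 mD3AKO males, mouse 7 at rest with 12 reads and mouse 19 after exercise with 14.

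The other members showed smaller differences than their spread. *Fndc5* (chr4:129136999-129144593, plus strand) lay between 193 and 313 CPM in all mice, with a log2 fold change of 0.06 after exercise (95% interval −0.11 to 0.23, adjusted p = 0.768 by edgeR). *Ostn* (chr16:27307489-27351212, plus strand) lay between 20.7 and 70.7 CPM, with a log2 fold change of 0.10 (95% interval −0.28 to 0.48, adjusted p = 0.846). *Bdnf* (chr2:109674700-109727007, plus strand) lay between 2.58 and 9.31 CPM, with a log2 fold change of −0.30 (95% interval −0.67 to 0.07, adjusted p = 0.363). The 2 highest *Bdnf* values, 9.31 and 8.62 CPM, were those of mice 1 and 2, rested females of either genotype, and the other 23 mice had at most 5.27. Without these 2 mice the log2 fold change of *Bdnf* was 0.01.

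Among the matrix proteins, *Dcn* (chr10:97479609-97518143, plus strand) lay between 232 and 590 CPM, with a log2 fold change of −0.12 (95% interval −0.34 to 0.09, adjusted p = 0.564 by edgeR). *Sparc* (chr11:55394500-55423183, minus strand) lay between 210 and 736 CPM, with a log2 fold change of −0.02 (95% interval −0.39 to 0.34, adjusted p = 0.972). Of the 8 intervals that of *Fndc5* was the narrowest and that of *Gdf15* the widest.

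**Figure D2:**
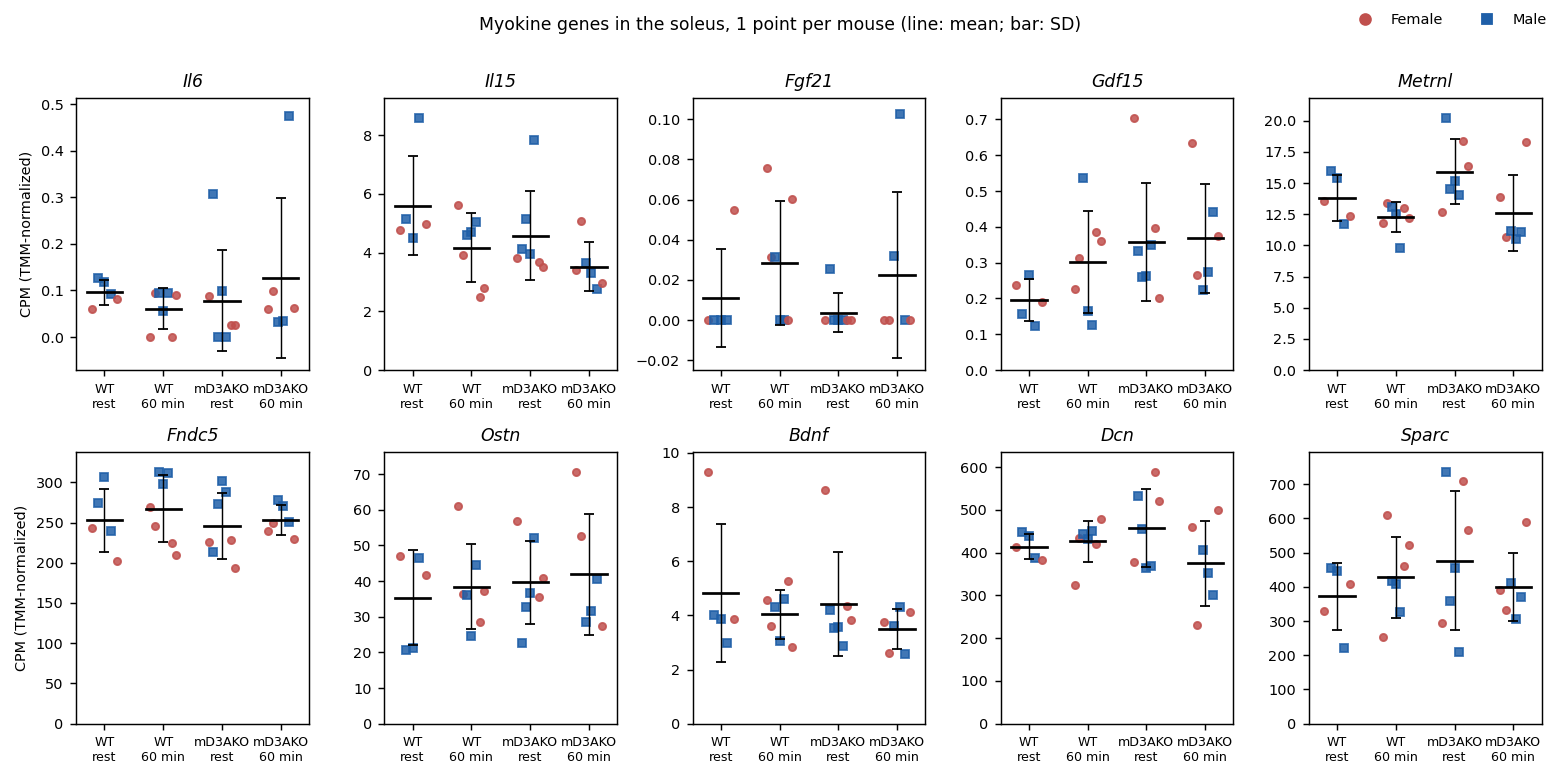
CPM of the 10 myokine genes in the 4 groups of genotype and exercise, 1 point per mouse, with circles for females and squares for males, the mean as a line and the SD as a bar. The groups overlap for every gene, and single mice stand far above their group for *Il6*, *Il15*, *Gdf15* and *Bdnf*.

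The second comparison asked whether loss of *Dnmt3a* from muscle fibers was accompanied by other myokine levels. 0 of 8 members were called for the main effect of genotype by edgeR, beside 0.269% of all genes tested, and DESeq2 also called 0. 1 member, *Gdf15*, had an unadjusted p under 0.05. It was at 0.257 CPM on average in WT and 0.363 CPM in mD3AKO mice, and 11 of 13 mD3AKO mice lay above the WT median. The log2 fold change was 0.57 (95% interval 0.07 to 1.07, unadjusted p = 0.027, adjusted p = 0.73). At rest it was 0.85 (adjusted p = 1.00) and after exercise 0.29 (adjusted p = 1.00). Mouse 2, at rest, had the highest value with 0.704 CPM, and without mice 1 and 2 the log2 fold change was 0.48 with an unadjusted p of 0.0604.

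The log2 fold changes of mD3AKO against WT mice were −0.27 for *Il15* (95% interval −0.58 to 0.04), 0.12 for *Metrnl* (−0.06 to 0.31) and −0.06 for *Fndc5* (−0.23 to 0.11). They were 0.14 for *Ostn* (−0.24 to 0.53), −0.16 for *Bdnf* (−0.53 to 0.21), −0.02 for *Dcn* (−0.23 to 0.19) and 0.13 for *Sparc* (−0.24 to 0.50). Every one of these 7 intervals holds 0. With each mouse left out in turn the value ranged from −0.36 to −0.17 for *Il15*, from 0.05 to 0.15 for *Metrnl*, from −0.10 to −0.02 for *Fndc5*, from 0.04 to 0.22 for *Ostn* and from 0.06 to 0.19 for *Sparc*, and it crossed 0 for *Bdnf* and *Dcn*. *Il6* had 43 reads in mD3AKO and 30 in WT mice (permutation p = 0.585), and *Fgf21* had 5 and 8 (permutation p = 0.462).

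The interaction asked whether the response to exercise differed between the genotypes. It was called for 0 of 8 members by edgeR and by DESeq2, and 0 had an unadjusted p under 0.05 with either tool. The share of all genes called was 0%, with 403 of 16340 at an unadjusted p under 0.05. *Dcn* and *Sparc* had the lowest unadjusted p together with *Gdf15*. *Dcn* had a log2 fold change after exercise of 0.04 in WT and −0.29 in mD3AKO mice, a difference of −0.33 (95% interval −0.76 to 0.09, unadjusted p = 0.119). *Sparc* had 0.20 and −0.25, a difference of −0.45 (95% interval −1.19 to 0.28, unadjusted p = 0.217). *Gdf15* had 0.62 and 0.05, a difference of −0.57 (95% interval −1.57 to 0.44, unadjusted p = 0.256), which was −0.30 without mouse 2.

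**Figure D3:**
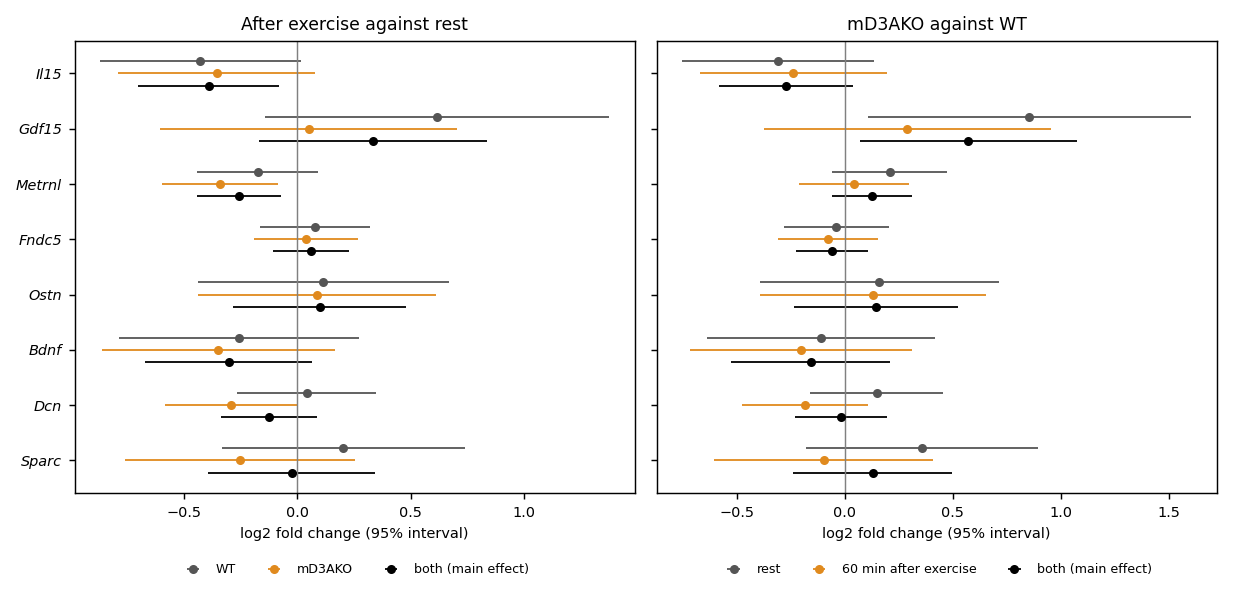
Log2 fold changes of the 8 tested myokine genes with 95% intervals, after exercise against rest (left) and mD3AKO against WT (right), in each stratum and as the main effect. The main-effect intervals lie off 0 for *Il15* and *Metrnl* on the left and for *Gdf15* on the right, and 0 of the 8 passed the adjusted threshold on either side.

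*Dcn* and *Sparc* varied with the summed level of fibroblast markers. The summed level of 10 fibroblast markers ranged from 1654 to 6366 CPM over the 25 mice, with medians of 3107 and 3492 CPM in rested WT and mD3AKO mice and 3146 and 2596 CPM in exercised ones. *Sparc* rose with this sum (Pearson r = 0.913, Spearman rho = 0.886, n = 25), as did *Dcn* (r = 0.788, rho = 0.826) and *Metrnl* (r = 0.749, rho = 0.702). The permutation p adjusted over 13 relations for Pearson's r was 4.3e-05 for *Sparc* and *Dcn*, and 1.3e-04 for *Metrnl*. For *Sparc* and *Dcn* the unadjusted permutation p was 1.0e-05, the smallest that the resamples could give. For Spearman's rho the adjusted permutation p was 6.5e-05, 6.5e-05 and 6.2e-04.

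These relations also held within each sex. In the 12 females r was 0.957 for *Sparc*, 0.881 for *Dcn* and 0.772 for *Metrnl*, and in the 13 males it was 0.885, 0.735 and 0.730. Without the 2 mice farthest from the median sum, r over the remaining mice was 0.876, 0.801 and 0.788. Gene and sum come from the same libraries and share their scaling. Sums of the other cell types were not set against these 3 genes. Whether the relations are particular to fibroblast markers was therefore not tested. *Gsn*, *Col1a1*, *Col1a2* and *Col3a1* make up most of the sum, and the 3 collagen genes are matrix genes too, so more fibroblasts and more matrix expression cannot be told apart. The mouse with the highest sum, mouse 7, had the highest *Sparc* and *Metrnl*, and mouse 21, with the second highest, had the highest *Dcn*.

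**Figure D4:**
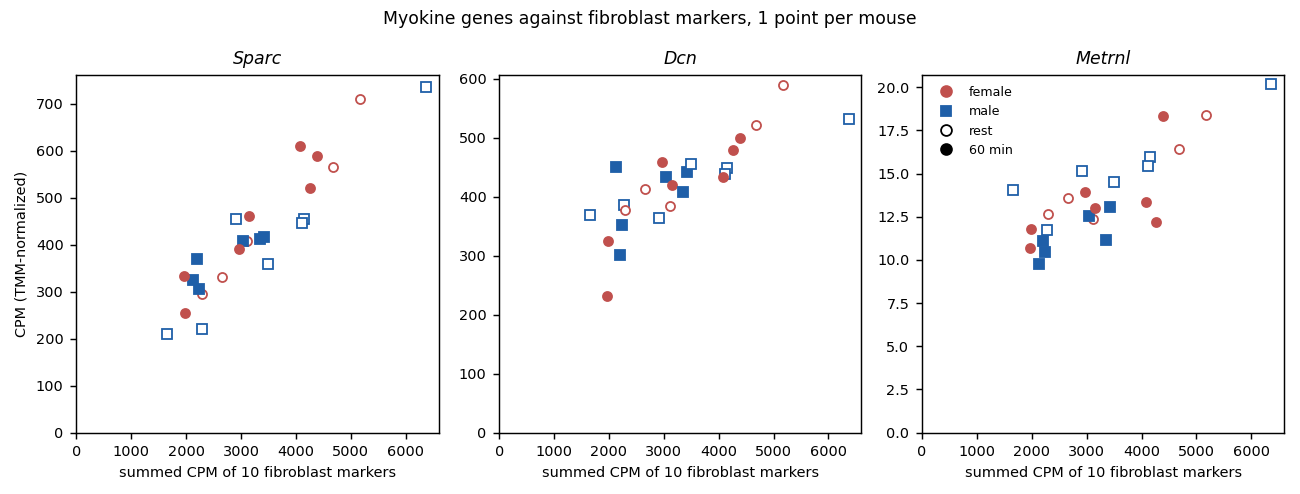
CPM of *Sparc*, *Dcn* and *Metrnl* against the summed CPM of 10 fibroblast markers, 1 point per mouse, with circles for females, squares for males, open symbols for rest and filled symbols for 60 minutes after exercise. Pearson's r over the 25 mice is 0.913, 0.788 and 0.749.

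Sex was compared in a fit with 8 groups. Of the 8 members other than *Il6* and *Fgf21*, 1 was called, beside 8.15% of all 17389 genes tested. This was *Fndc5*, the precursor of irisin, which was higher in males. Females had 193 to 270 CPM with a median of 228 and a mean of 230 ± 21.6 (SD, n = 12), and males had 214 to 313 CPM with a median of 278 and a mean of 278 ± 29.7 (n = 13). 12 of 13 males lay above the female median, and all 12 females lay below the male median. The log2 fold change was 0.30 ± 0.06 (SE, adjusted p = 0.00399 by edgeR), and it was called in each of the 25 fits that left out a mouse. The exception among males was mouse 7 with 214 CPM. All males carry mouse numbers 7 to 19 and all females 1 to 6 or 20 to 25, so sex and these blocks of numbers cannot be told apart.

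The fiber markers moved with sex too. 5 of 6 fast fiber markers were called higher in males, and 5 of 6 slow fiber markers lower. The summed slow markers ranged from 20970 to 27060 CPM in males and from 25940 to 41120 CPM in females, and the summed fast markers from 23670 to 36990 CPM and from 17490 to 29130 CPM. Of the other cell types, 2 of 6 satellite cell markers were called lower in males and 0 markers of fibroblasts, endothelium, immune cells, adipocytes, Schwann cells or blood. The median log2 difference was −0.70 over the adipocyte, −0.76 over the Schwann cell and 0.52 over the blood markers, against −0.01 over all genes. With library sizes as column totals 1 fast marker was called, and 3 were called without mouse 20. Their part in the difference of *Fndc5* was not tested. Within a sex, r of *Fndc5* with the fast markers was 0.192 in males and 0.0837 in females (permutation p adjusted over 13 relations 0.625 and 0.795, rho −0.247 and 0.21). Without the 2 farthest mice, r with the fast markers was −0.402 in males and 0.361 in females. With the slow markers r was 0.63 in males (adjusted permutation p = 0.0284, rho = 0.67, r = 0.772 without the 2 farthest mice) and 0.156 in females (adjusted permutation p = 0.686). These values within a sex do not test the difference between the sexes.

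The call of *Fndc5* depended on scaling. With library sizes taken as column totals the median of all genes was −0.12 on the log2 scale for males against females, *Fndc5* was at 0.18 with an adjusted p of 0.159, and *Ostn* was called in its place at −0.55 with an adjusted p of 0.0424. When mouse 15 was left out as well, both were called, *Fndc5* at 0.21 with an adjusted p of 0.0215 and *Ostn* at −0.55 with 0.0352. With the scaling of the main test *Ostn* had −0.41 with an adjusted p of 0.168.

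*Bdnf* had −0.37 for males against females with an adjusted p of 0.166, and *Il6* had 50 reads in males and 23 in females. *Il6* is given with no test of sex, since the only libraries with 10 or more reads were those of 2 males, mice 7 and 19. The remaining members had log2 differences between −0.35 and 0.25 with adjusted p between 0.317 and 0.898.

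With males and females taken apart, exercise was called for 1 of these 8 members in males, *Metrnl*, and for 0 of 8 in females by edgeR, beside 6.41% and 3.50% of all genes. DESeq2 gave the same counts, and 1 member, *Bdnf*, had an unadjusted p under 0.05 in females. In males *Il15* had one too, at −0.51 (unadjusted p = 0.0164, adjusted p = 0.145), with all 6 exercised males below the median of the rested males. *Metrnl* ranged from 11.7 to 20.2 CPM with a median of 15.2 in the 7 rested males and from 9.78 to 13.1 CPM with a median of 11.1 in the 6 exercised males. All 6 exercised males lay below the median of the rested males, and the ranges overlapped. The log2 fold change was −0.42 (adjusted p = 0.0323 by edgeR), and with library sizes as column totals it was not called, at −0.46 with an adjusted p of 0.206.

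This call was lost without any 1 of 8 males (7, 10, 11, 13, 16, 17, 18 or 19), where the log2 fold change was −0.36 to −0.44 and the adjusted p 0.0504 to 0.10. In females *Metrnl* ranged from 12.4 to 18.4 CPM at rest and from 10.7 to 18.3 CPM after exercise, with a log2 fold change of −0.09 (adjusted p = 0.916). The fibroblast markers summed to 1654 to 6366 CPM with a median of 3492 in the rested males and to 2136 to 3421 CPM with a median of 2637 in the exercised males, and their part in the lower *Metrnl* was not tested.

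The difference between the sexes in the response to exercise was called for 0 of these 8 members by edgeR and DESeq2, beside 0.0460% of all genes, and 1, *Bdnf*, had an unadjusted p under 0.05. For *Metrnl* the difference was −0.33 (unadjusted p = 0.0644, adjusted p = 1.00), so the response was not shown to differ. For *Bdnf* it was 0.73 (unadjusted p = 0.0337, adjusted p = 1.00), with −0.68 in females (adjusted p = 0.13) and 0.05 in males. The 5 rested females had 3.82, 3.88, 4.33, 8.62 and 9.31 CPM of *Bdnf*, and the 7 exercised females 2.63 to 5.27 CPM. Without mice 1 and 2, which held the 2 highest values, the difference was 0.10 and the log2 fold change in females −0.05. Without the rested WT female 20 alone, *Bdnf* was called in females at −0.94 with an adjusted p of 0.0280.

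**Figure D5:**
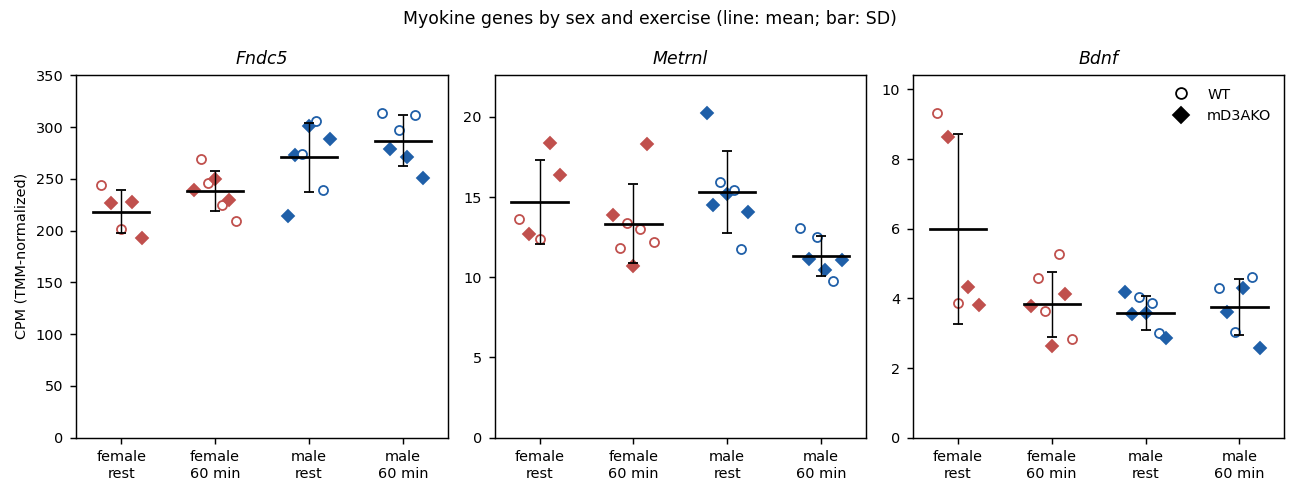
CPM of *Fndc5*, *Metrnl* and *Bdnf* by sex and exercise, 1 point per mouse, with open circles for WT and filled diamonds for mD3AKO mice, the mean as a line and the SD as a bar. *Fndc5* is higher in males at rest and after exercise, the exercised males all lie below the median of 15.2 CPM of *Metrnl* in rested males, and 2 rested females stand apart for *Bdnf*.

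The receptors of these factors were measured in the same muscle. Of 19 receptor genes, 17 were tested, and 2 were called for exercise, both higher, a share near the 10.4% of all genes called. *Il6ra*, the ligand-binding subunit for interleukin-6, rose from 10.2 ± 1.85 CPM at rest (SD, n = 12) to 13.8 ± 3.09 CPM after exercise (n = 13), a log2 fold change of 0.47 (adjusted p = 0.00317 by edgeR). *Met*, the receptor of hepatocyte growth factor, which decorin can bind, rose from 28.4 ± 2.74 to 34.9 ± 3.81 CPM, a log2 fold change of 0.31 (adjusted p = 3.3e-04). The median over the receptors was 0.00 on the log2 scale, as over all genes tested.

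Per kb of length, the shared signal-transducing chain *Il6st* had 27.1 RPKM, *Il6ra* 1.40 and *Il15ra* 2.40 RPKM. Of the chains that interleukin-15 shares with interleukin-2, *Il2rg* had 0.356 RPKM and *Il2rb* at most 13 reads in a library. *Fgfr1*, which FGF21 engages, had 6.36 RPKM, and its coreceptor *Klb* 0.140 RPKM. *Gfral*, the receptor of GDF15, which is known from the hindbrain, had 0 reads in all libraries, while its partner *Ret* had 1.64 RPKM. *Kit*, described as a receptor of meteorin-like, had 0.302 RPKM. The integrin genes *Itgav* and *Itgb5*, reported to bind irisin, had 8.02 and 32.1 RPKM. *Npr3*, which musclin occupies, had 24.1 RPKM, and the natriuretic peptide receptors *Npr2* and *Npr1* had 14.4 and 3.02 RPKM. The neurotrophin receptors *Ntrk2* and *Ngfr* had 0.537 and 0.325 RPKM, and *Egfr*, which decorin can bind, had 3.40 RPKM.

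Genes known to act upstream of some members were also measured. Their lists were chosen with earlier results of these data known, so the shares called are not independent of those results. Of 17 genes around PGC-1α and contraction signaling, 7 were called higher and 1 lower, with a median log2 fold change of 0.15 against 0.00 over all genes, of which 10.4% were called. The orphan nuclear receptors *Nr4a2*, *Nr4a3* and *Nr4a1* had log2 fold changes of 3.50, 3.13 and 1.92, and *Ppargc1a*, which encodes PGC-1α, had 1.10, from 37.7 ± 6.83 to 79.7 ± 19.6 CPM (SD, n = 12 and 13, adjusted p = 1.4e-07 by edgeR). *Ppargc1b*, its relative, had −0.21 with an adjusted p of 0.0493, a call that was lost when sex was added to the model, at −0.21 with an adjusted p of 0.0510, and in 17 of the 25 fits that left out a mouse.

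Of 18 genes of the integrated and unfolded protein stress responses, 5 were called higher and 2 lower, with a median of 0.05, beside 10.4% of all genes called. *Ddit4*, an inhibitor of mTORC1, rose by 2.48 on the log2 scale, from 9.02 ± 3.69 to 51.8 ± 12.2 CPM (adjusted p = 1.4e-10). *Ppp1r15a*, a phosphatase subunit that restores translation, had 0.78, the chaperone *Hspa5* 0.60 and *Atf4* itself 0.32, from 148 ± 11.0 to 184 ± 22.7 CPM (adjusted p = 4.4e-04). Other targets of the pathway went the opposite way, with *Chac1*, a glutathione-degrading enzyme, at −0.92 and *Ddit3*, which encodes CHOP, at −0.35. Without mouse 1 both calls were lost, with *Chac1* at −0.59 and *Ddit3* at −0.33.

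Of 41 other secreted factors of muscle, 34 were tested, with 6 called higher, 4 lower and a median of −0.02, beside 10.4% of all genes called. *Adamts9*, a matrix protease, had a log2 fold change of 1.33, *Cxcl10*, a chemokine, 1.30 and *Hbegf*, an EGF receptor ligand, 1.24. *Cxcl10* was at 0.189 CPM at rest and 0.484 CPM after exercise with an adjusted p of 0.0457, and it was not called with library sizes as column totals (adjusted p = 0.0780) nor in 15 of the 25 fits that left out a mouse. Lower were *Tnf* at −1.56, from 0.367 to 0.135 CPM, the chemokine *Cxcl12* at −0.43, from 155 ± 13.6 to 115 ± 16.0 CPM, *Bmp4* at −0.35 and *Tgfb2* at −0.22. *Tnf* had at most 27 reads in a library. *Bmp4* and *Tgfb2* were not called with library sizes as column totals (adjusted p = 0.0570 and 0.165).

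Of 44 relatives of the members, 34 were tested, with 0 called higher, 2 lower and a median of −0.17, beside 10.4% of all genes called in either direction. *Inhba*, an activin subunit of the same superfamily as GDF15, fell by 0.76 on the log2 scale, from 3.71 ± 0.752 to 2.19 ± 0.366 CPM (adjusted p = 1.2e-05). *Nppc*, the natriuretic peptide related to musclin, fell by 1.31, from 0.316 to 0.128 CPM (adjusted p = 0.0071). It had at most 25 reads in a library, so depth limits this value. It was tested in 24 of the 25 fits that left out a mouse. Of 26 partners of *Dcn* and *Sparc* in the matrix, 2 were called higher and 0 lower, with a median of −0.22, beside the same 10.4%. These were the collagen-modifying enzymes *Plod2* at 0.64 and *P4ha1* at 0.39. *Plod2* was not called with library sizes as column totals (adjusted p = 0.0530).

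Among the markers of other cell types, 0 of 10 fibroblast markers were called for exercise by edgeR, with 2 at an unadjusted p under 0.05 and a median of −0.22, while DESeq2 called *Pdgfra* lower. 0 of 7 immune markers were called by either tool, with 0 at an unadjusted p under 0.05 and a median of −0.10. Of 6 adipocyte, 7 Schwann cell and 5 blood markers, 0 were called for exercise, genotype or the interaction by edgeR. Their medians were 0.17, 0.14 and −0.12 for exercise and −0.68, 0.17 and −0.05 for genotype. For the interaction they were −0.88, −0.67 and 0.10. Endothelial markers were split, with *Flt1* at 0.32 and *Esam* at 0.31 higher and *Kdr* at −0.58, *Egfl7* at −0.44, *Emcn* at −0.27 and *Cdh5* at −0.23 lower, of 8. *Esam*, *Emcn* and *Cdh5* were not called with library sizes as column totals (adjusted p = 0.110, 0.0612 and 0.143). Of 6 satellite cell markers, the muscle stem cell factors *Myf5* at −0.46 and *Pax7* at −0.45 were lower. *Pax7* was also called for genotype, higher in mD3AKO mice at 0.48 with an adjusted p of 0.0384 by edgeR, a call lost in 17 of the 25 fits that left out a mouse. None of the 12 slow and fast fiber markers was called for exercise by either tool, with 0 at an unadjusted p under 0.05. No gene of the receptor, relative, upstream, secreted factor or matrix lists was called for genotype or for the interaction.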

How the data were processed

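RNA-seq of 25 *soleus* libraries (75-bp paired ends, stranded, ribosomal RNA depleted) was analysed. The authors deposited raw read counts per gene, aligned to mm10 and counted on GENCODE M15. The submitters' processing notes name FastQC 0.11.5, STAR 2.5.3a and featureCounts 1.5.3. Whether counting used the strand is not given in the sources used here. Of the members, only *Bdnf* shares exon bases with another gene, *Gm45346* on the opposite strand (896 bases, 0 reads). Gene lengths were those of the deposited table. Symbols and positions came from GENCODE M21, with 52403 of 52636 genes matched.

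Counts were TMM-normalized and tested with edgeR 4.0.16 (limma 3.58.1, R 4.3.3) quasi-likelihood F tests with 1 mean per group, after filterByExpr (minimum count 10, minimum total 15), which left 16340 genes. P-values were adjusted by Benjamini-Hochberg over all genes tested and called under 0.05. Standard errors are the log2 fold change over the square root of F. Sex was tested with 8 groups and 17389 genes. *Il6* and *Fgf21* were compared as CPM by 2-sided permutation tests of 100000 resamples, and correlations likewise (NumPy 2.4.6). Only the edgeR fit for the main effect of exercise was tested on simulated counts with known changes. DESeq2 1.42.0, no TMM factors, no filter, sex or mouse-number blocks as terms and each mouse left out were the alternatives. The 67 pairs of mice within groups all differed by more than sampling noise (lowest chi-square per gene 13.3). P-values take single mice as the units and set differences against the spread between mice.

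The members, gene lists and tests were chosen with earlier results of these data known. Named are all members, *Dnmt3a*, the receptors and, per list, at most the 4 largest called changes per direction for exercise or genotype. A gene of the secreted factor list that the rule names is not reported here. The genes most correlated with a called member were to be named too, but no member was called for exercise or genotype. Lists overlap: *Lum* is both a fibroblast marker and a relative of *Dcn*, and *Col1a1*, *Col1a2* and *Col3a1* are both fibroblast markers and matrix partners. At the median total, 1 CPM is about 32 reads.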

Additional observations from a re-analysis of the deposited data

Results flagged for a closer look

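Of the 40 combinations of a myokine gene and a group, 12 held a mouse whose gap to the next value exceeded Dixon's 95% critical value. For continuous values chance alone flags about 1 in 20, here 2.0. In rested WT and in rested mD3AKO mice, *Fgf21* had reads in a single mouse, which is flagged by construction. The 12 flags therefore cannot be set against 2.0. The 5 flags of *Il6* and *Fgf21* rest on 1 to 14 reads. *Il6* was highest in mouse 7 with 0.306 CPM (rested mD3AKO) and in mouse 19 with 0.475 CPM (exercised mD3AKO). *Fgf21* was highest in mouse 20 with 0.0546 CPM (rested WT), in mouse 7 with 0.0255 CPM and in mouse 17 with 0.102 CPM (exercised mD3AKO).

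*Il15* stood apart in mouse 14 with 8.58 CPM (rested WT, next 5.16) and in mouse 15 with 7.83 CPM (rested mD3AKO, next 5.15). *Gdf15* stood apart in mouse 2 with 0.704 CPM (next 0.396, 24 reads). *Bdnf* stood apart in mouse 1 with 9.31 CPM (rested WT, next 4.03) and in mouse 2 with 8.62 CPM (rested mD3AKO, next 4.33), on 312 and 294 reads. The lowest *Dcn* of exercised WT mice was that of mouse 4 with 325 CPM (next 420), and the highest *Sparc* of exercised mD3AKO mice that of mouse 23 with 588 CPM (next 411).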

How the results depend on the processing

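No paired analysis was possible because each mouse number occurs in 1 group only. Without TMM factors the median of all genes moved by over 0.1 on the log2 scale for sex (−0.12), and with mouse 15 left out as well for exercise in males (−0.106) and the interaction (−0.11). Depth limits *Il6*, *Fgf21* and *Gdf15*, which had at most 24 reads in a library.

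The number of members called for exercise was 1 with DESeq2 (*Metrnl*), 1 with blocks of mouse numbers as a term (*Il15*, −0.41, adjusted p = 0.0459) and 1 without mice 1 and 2 (*Metrnl*, −0.28). With single mice left out it was 0 to 1, with *Metrnl* called without mouse 2 or 23 and *Il15* without mouse 6. The number called in males was 0 without TMM factors (*Metrnl* −0.46, adjusted p = 0.206) and 0 to 1 with single mice left out. In females it was 0 to 1. For sex it was 2 without TMM factors and mouse 15. For genotype and the interaction it was 0 in every setting tried.

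Signs turned for some members near 0. *Ostn* was −0.0139 for exercise with the blocks and 0.0011 for the interaction without TMM factors. *Bdnf* was 0.0123 for exercise without mice 1 and 2. Without TMM factors and mouse 15, *Dcn* was 0.0268 for genotype and *Bdnf* −0.10 for exercise in males. In that setting the median of all genes was 0.0167 for genotype and −0.106 for exercise in males. With single mice left out, the ranges that crossed 0 were −0.0961 to 0.0474 for *Sparc* and −0.0047 to 0.16 for *Ostn* in exercise, −0.285 to 0.0330 for *Bdnf* and −0.0698 to 0.0328 for *Dcn* in genotype, and −0.101 to 0.0174 for *Dcn* in sex. For the interaction they were −0.47 to 0.16 for *Bdnf*, −0.122 to 0.0285 for *Fndc5*, −0.13 to 0.24 for *Il15* and −0.24 to 0.12 for *Ostn*, and for *Bdnf* in males −0.0397 to 0.136. The *Il6* difference ranged from −0.0255 to 0.0265 CPM for exercise and from −0.0061 to 0.0335 CPM for genotype. The cause was not tested. Relatives called lower for exercise were 4 without mice 1 and 2, against 2. The fits by sex, without mice 1 and 2, without TMM factors and mouse 15, and of the lists were added after seeing the data.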
